A study of Mus musculus with 6 samples.

Results

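Immediate early genes are transcribed within minutes of synaptic activity, without new protein synthesis, and in cortical neurons they are the usual molecular record of recent firing. Most of the 10 genes described here, *Arc*, *Fos*, *Fosb*, *Jun*, *Junb*, *Egr1*, *Egr3*, *Npas4*, *Nr4a1* and *Dusp1*, encode transcription factors that carry the signal to a later wave of genes. Their mRNAs are short-lived, and many carry AU-rich elements in the 3′ UTR that recruit decay factors. The genes were chosen by name, not by their values, and all 10 were found among the 31053 genes listed in every library.

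The libraries came from primary mouse cortical neurons dissected from E18 wild-type C57BL/6J embryos, treated with floxuridine to limit dividing cells and transduced with AAV carrying a doxycycline-inducible Ribo-STAMP construct. In Ribo-STAMP, the cytidine deaminase APOBEC1 is fused to a ribosomal protein and leaves C-to-U edits on the mRNAs that the tagged ribosome meets. One group carried RPL10A-STAMP, with RPL10A at the C terminus of APOBEC1, and the other carried RPL22-STAMP, with RPL22 at its N terminus, with 3 libraries each. All 6 cultures were infected at DIV 6, received 1 µg/ml doxycycline for 48 h and were collected at DIV 14, and the human synapsin promoter drove the transactivator. No stimulus was added, so the values are those of basal culture activity. No library without a construct was analysed here, so the share of these edits that sequencing errors or other editing may give was not tested.

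The measurement was EPR, the C-to-U edits called in the exons of a gene divided by the reads counted on it. A value of 0 can mean that no edit was called or that the gene had no reads. The reads behind each ratio are unknown, so no counting interval can be given for a single value. Edits were called on 9892 to 11195 genes per library, and 8046 genes (25.9%) were edited in all 6. Over those genes the median EPR was 0.0120, 0.0153 and 0.0161 in the RPL10A-STAMP libraries and 0.00907, 0.0129 and 0.0112 in the RPL22-STAMP libraries. All 8 neuron markers checked were edited in all 6 libraries, among them *Slc17a7*, the vesicular glutamate transporter, at a mean EPR of 0.0502 ± 0.00619 (SD, n = 3) with RPL10A-STAMP and 0.0373 ± 0.00583 with RPL22-STAMP. In the fit described below, 6 of the 8 had a fold change in favour of RPL22-STAMP, as had 4125 of all 8046 genes. Of the 8, 2 passed, both higher with RPL22-STAMP, where 14.3% of all tested genes passed and 5.77% in that direction. They were *Syn1* at 0.0197 ± 0.00180 against 0.0334 ± 0.00443 (limma adjusted p = 0.00814) and *Gad2* at 0.00961 ± 0.00113 against 0.0147 ± 0.00104 (limma adjusted p = 0.0446). *Syn1* was not called with the GC trend removed (limma adjusted p = 0.0559), and *Gad2* was called in 3 of 18 alternatives. Of 6 astrocyte markers, 4 were also edited in all libraries, and the EPR summed over the 6 ran from 0.188 to 0.238 with RPL10A-STAMP and from 0.109 to 0.257 with RPL22-STAMP. *Aqp4*, the astrocyte water channel, had a mean EPR of 0.0568 ± 0.00495 and 0.0523 ± 0.0249. *Slc17a7* and *Aqp4* were each named as the most edited gene of their list. The median mean EPR over 6 libraries was 0.0168 for the 8 neuron markers and 0.0436 for the 4 astrocyte markers edited in all libraries. Of the oligodendrocyte lineage markers 3 of 6 were listed at 0 throughout and 1 was edited in all 6 libraries, at a mean EPR of 0.00508. Their summed EPR ran from 0.00358 to 0.0886 with RPL10A-STAMP and from 0.0126 to 0.0577 with RPL22-STAMP. Of the microglial markers 4 of 6 were listed at 0 throughout, and the complement gene *C1qa* was edited in 1 library. The part of cells other than neurons in the values below was not tested.

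The AU-rich elements are shown first because they are the sequence feature for which these mRNAs are best known. The DNA letters of the AU-rich pentamer, ATTTA, were counted on the sense strand of the annotated 3′ UTR (GENCODE mouse release 21, GRCm38, the assembly of mm10), overlapping matches included. The pentamer occurred in the 3′ UTR of 9 of the 10 genes, *Arc* being the exception, and in 75.6% of the 7731 tested genes with a 3′ UTR of at least 30 bases. In 4 genes a stretch of 30 bases held at least 2 copies, against 22.3% of those tested genes and 0.247% of all their 30-base windows. These stretches lie at chr12:85477101-85477130 on the plus strand for *Fos*, chr4:95049207-95049236 on the minus strand for *Jun*, chr15:101274702-101274731 on the plus strand for *Nr4a1* and chr17:26506156-26506185 on the minus strand for *Dusp1*. Each is written 5′ to 3′ as DNA, with every ATTTA in capitals.
Fos: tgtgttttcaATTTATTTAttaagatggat
Jun: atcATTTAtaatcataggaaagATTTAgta
Nr4a1: ATTTAtatttgtgtattttcctggATTTAt
Dusp1: gctggtccttATTTATTTAacacccccctc
In *Fos* and *Dusp1* the copies overlap, and in *Jun* and *Nr4a1* they are apart.

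The immediate early genes were edited weakly. Across the libraries 8, 9 or 10 of the 10 had an edit, and 8 were edited in all 6 libraries. Of those 8, *Arc*, *Fos*, *Fosb*, *Egr1* and *Npas4* lay below the median gene in every library, 5 of 8 against 21.3% of the 8046 genes. The median EPR of the 10 genes was 0.00358, 0.00668 and 0.00470 in the RPL10A-STAMP libraries and 0.00376, 0.00522 and 0.00524 in the RPL22-STAMP libraries. Ranked among the 8046 genes, the 8 had a median percentile of 6.61, 19.1 and 7.82 in the former libraries and 14.1, 12.5 and 26.4 in the latter. In a bulk library, a low EPR can come from fewer cells with edited mRNA or from fewer edits per mRNA, and the ratios cannot tell these apart.

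**Figure D1:**
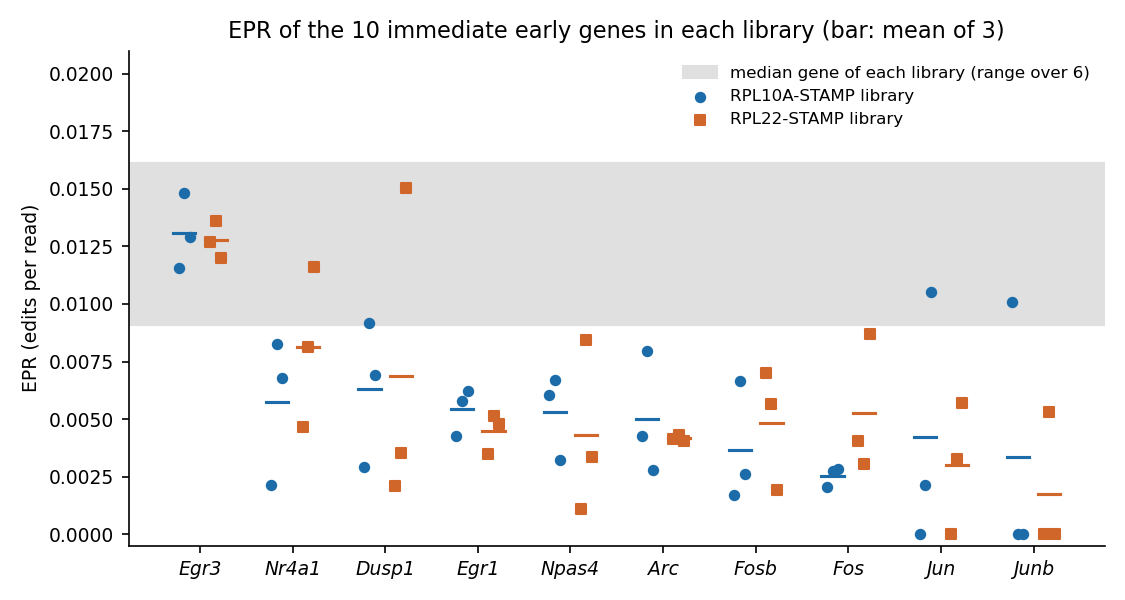
Deposited EPR (edits per read, linear axis) of the 10 immediate early genes, ordered by their mean over 6 libraries; circles are the 3 RPL10A-STAMP libraries, squares the 3 RPL22-STAMP libraries and short bars the means of 3. The grey band spans the 6 library medians (0.00907 to 0.0161), and only *Egr3* lay inside it in all 6 libraries.

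The genes differed in level, and 1 of them stood apart. The mean EPR over 6 libraries was highest for *Egr3*, at 0.0129 ± 0.00118 (SD, n = 6), followed by *Nr4a1* at 0.00693, *Dusp1* at 0.00660, *Egr1* at 0.00494, *Npas4* at 0.00480, *Arc* at 0.00459, *Fosb* at 0.00425, *Fos* at 0.00390, *Jun* at 0.00360 and *Junb* at 0.00257. *Egr3* was above *Nr4a1* in 6 of 6 libraries. Below it, each gene was above the next in this order in only 2 to 4 of the 6 libraries, so neighbours did not differ beyond their spread. EPR is a ratio to the reads of the same gene, and a longer transcript adds to both terms. Across the 7921 tested genes with an annotated coding sequence, mean EPR over 6 libraries had a Spearman correlation of 0.15 with transcript length. The part of length in the order of the 10 genes was not tested.

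*Fos* and *Fosb* encode FOS-family subunits of the AP-1 transcription factor, which pair with JUN proteins. *Fos* (chr12:85473890-85477273) had an EPR of 0.00203, 0.00273 and 0.00285 in the RPL10A-STAMP libraries, against 0.00406, 0.00305 and 0.00870 with RPL22-STAMP. The lowest RPL22-STAMP library was above the highest RPL10A-STAMP library, and *Fos* was the only 1 of the 10 genes whose deposited values did not overlap between the variants. The share of all genes without overlap was counted on scaled EPR only, where it was 37.1% of the 8046 tested genes, so the separation is not particular to *Fos*. A two-sided exact permutation test over the 20 labelings gave p = 0.10, the smallest it allows. *Fosb* (chr7:19302696-19310051) had values of 0.00171, 0.00665 and 0.00262 against 0.00699, 0.00564 and 0.00191. Its groups overlapped, with a 4.10-fold range over the libraries. *Fosb* was above *Fos* in 3 of 6 libraries, with a ratio from 0.220 to 2.44, so no order between them held.

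*Jun* and *Junb* encode the JUN-family partners and were the most sparsely edited. *Jun* (chr4:95049034-95052222) was listed at 0, 0.00213 and 0.0105 with RPL10A-STAMP and at 0, 0.00326 and 0.00570 with RPL22-STAMP. *Junb* (chr8:84974484-84978718) was listed at 0.0101, 0 and 0 with RPL10A-STAMP and at 0, 0.00529 and 0 with RPL22-STAMP. Edits were thus called in 4 and in 2 of the 6 libraries, in both variants. The difference of the means was 0.00122 for *Jun* (exact permutation p = 0.90) and 0.00160 for *Junb* (exact permutation p = 1.0). The difference of *Jun* was -0.00192 without RPL10A-STAMP replicate 3 and -0.000270 without RPL22-STAMP replicate 1, and that of *Junb* was -0.00176 without RPL10A-STAMP replicate 1. Neither gene entered the fit described below. On the opposite strand, 7.28% of the exon bases of *Jun* lie under *Junos* and 7.52% of those of *Junb* under *Prdx2*. The kit is stranded, but the strand setting of the counting is not given in the sources used here.

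*Egr1* and *Egr3* encode zinc finger proteins that bind the same GC-rich element, and they gave the 2 steadiest EPR values of the set. *Egr1* had an EPR of 0.00427, 0.00578 and 0.00620 in the RPL10A-STAMP libraries, against 0.00346, 0.00514 and 0.00479 with RPL22-STAMP. The highest value was 1.79-fold the lowest, and relative to the median gene of its library *Egr1* kept between 0.357 and 0.426. *Egr3* (chr14:70077203-70082614) had values of 0.0115, 0.0148 and 0.0129 against 0.0127, 0.0136 and 0.0120, a 1.28-fold range. *Egr3* lay close to the median gene, at 0.799 to 1.40 of it, and below it in 3 of 6 libraries. *Egr3* was 2.08- to 3.66-fold above *Egr1* in each of the 6 libraries.

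*Npas4* encodes a bHLH-PAS factor known to be induced selectively by calcium entry in neurons. *Npas4* (chr19:4984355-4990316) had an EPR of 0.00604, 0.00670 and 0.00321 in the RPL10A-STAMP libraries, against 0.00111, 0.00842 and 0.00336 with RPL22-STAMP. Its lowest and highest values both came from RPL22-STAMP libraries and were 7.60-fold apart, the widest range among the 8 genes edited throughout. *Nr4a1* (chr15:101254269-101274795), an orphan nuclear receptor, had values of 0.00215, 0.00826 and 0.00680 against 0.00464, 0.00814 and 0.0116. Its groups overlapped over a 5.39-fold range.

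*Arc* and *Dusp1* do not encode transcription factors. *Arc* (chr15:74669083-74672570), whose mRNA travels to dendrites and whose protein promotes AMPA receptor endocytosis, had an EPR of 0.00425, 0.00797 and 0.00277 in the RPL10A-STAMP libraries, against 0.00414, 0.00433 and 0.00405 with RPL22-STAMP. The RPL22-STAMP values lay inside the range of the RPL10A-STAMP values. *Dusp1* (chr17:26505590-26562128), a nuclear phosphatase that switches off MAP kinases, had values of 0.00291, 0.00916 and 0.00691 against 0.00209, 0.00351 and 0.0150. Its highest value came from RPL22-STAMP replicate 3, where *Fos* and *Nr4a1* also had their highest, and where *Dusp1* in place of *Egr3* was the highest of the 10. Over the 8 genes the median ratio of highest to lowest library was 4.19, against 3.25 over all 8046 genes.

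The design allowed 1 comparison, RPL10A-STAMP against RPL22-STAMP. To test it, each library was scaled to its median gene, log2(EPR + 0.01) of the 8046 genes was fitted with limma, and p-values were adjusted over all of them by the Benjamini-Hochberg method. None of the 8 immediate early genes passed an adjusted p of 0.05, where 1149 of the 8046 genes (14.3%) did, 685 (8.51%) with a higher EPR in RPL10A-STAMP and 464 (5.77%) with a higher EPR in RPL22-STAMP. Without scaling, 88.1% of the calls were higher with RPL10A-STAMP, against 59.6% with it. At an unadjusted limma p under 0.05, 1 of the 8 passed, *Fos*, against 30.9% of all tested genes. The methods' per-gene test on unlogged EPR gave 0 of 8 before adjustment, against 24.8% of all tested genes, and 0 of 8 after it, and no gene of the 8046 passed it after adjustment. The scaled EPR of the variants did not overlap for *Fos* and *Egr3*, 2 of 8 genes against 37.1% of all.

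*Fos* had the lowest fold change, -0.38 on the log2(EPR + 0.01) scale (SE 0.16, limma adjusted p = 0.157). *Nr4a1* was next, at -0.37 (SE 0.18, limma adjusted p = 0.216), then *Fosb* at -0.25, *Egr3* at -0.20, *Dusp1* at -0.13, *Arc* at -0.05, *Egr1* at -0.04 and *Npas4* at 0.04. Of the 8, 7 were below 0, with a median of -0.17, against 4125 of 8046 genes and a median of -0.01. After the trend of each library with transcript GC content was removed, the median of the 8 was 0.07, so the sign of the median is not settled. The added 0.01 exceeds the EPR in most libraries for each of the 8 except *Egr3* and compresses the fold changes. Without it, *Fos* had a log2 fold change of -1.31, with a 95% interval from -2.53 to -0.09 (limma adjusted p = 0.141). The interval ran from -0.85 to 0.64 for *Egr1*, from -0.92 to 0.21 for *Egr3* and from -1.43 to 0.90 for *Arc*. For *Npas4* it ran from -1.37 to 1.96 and for *Dusp1* from -1.89 to 1.61, so differences of 2-fold in either direction lie within the error of both genes. Without RPL22-STAMP replicate 3 the log2(EPR + 0.01) fold change was 0.21 for *Dusp1* and -0.23 for *Fos*. That of *Arc* was 0.061 without RPL10A-STAMP replicate 3, and that of *Npas4* was -0.11 without RPL22-STAMP replicate 1 and -0.032 without RPL10A-STAMP replicate 1. With each library left out in turn, *Nr4a1* ran from -0.49 to -0.23, *Fosb* from -0.43 to -0.081 and *Egr3* from -0.24 to -0.13.

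**Figure D2:**
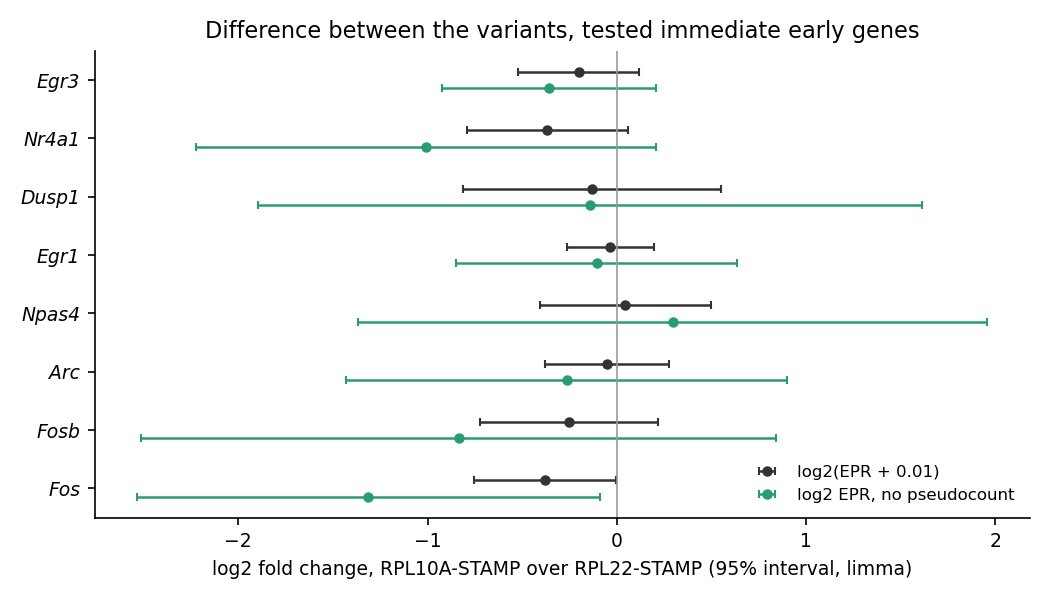
Difference between the variants as log2 fold change, positive where RPL10A-STAMP was higher (x axis, point with 95% interval from limma, 3 libraries against 3) for the 8 immediate early genes edited in all libraries, on log2(EPR + 0.01) (dark) and on log2 EPR without a pseudocount (green). All intervals but those of *Fos* cross 0, and no gene had an adjusted p under 0.05 on either scale.

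**Figure D3:**
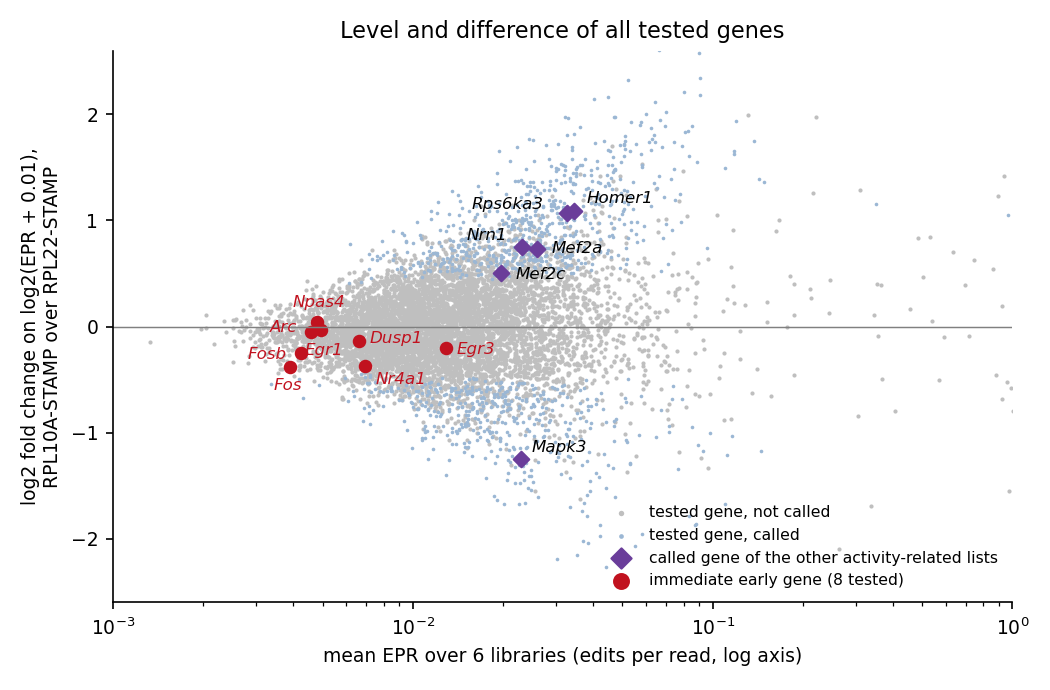
Mean EPR over 6 libraries (x axis, log scale) against the log2 fold change between the variants (y axis, limma on log2(EPR + 0.01)) for the tested genes, of which 43 lie outside the axes. Of the 8 immediate early genes (red), 7 had a mean EPR of 0.00390 to 0.00693 and *Egr3* of 0.0129, with fold changes from -0.38 to 0.04, and the called genes of the other activity-related lists (diamonds) lie at higher EPR.

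Other genes of the activity program were read from the same fit. Of 20 other immediate early transcription regulators, 8 were edited in all libraries and none passed the limma test, where 14.3% of all tested genes did. *Per1* came nearest (limma adjusted p = 0.0506), lower with RPL10A-STAMP, and was called in 2 of 18 alternatives. At an unadjusted limma p under 0.05 there were 2 of 8 (30.9% of all tested genes), and the methods' per-gene test gave 1 before adjustment (24.8% of all) and 0 after it. Their median mean EPR was 0.00602, close to the 0.00487 of the 8 genes above, and 6 of 8 lay below the median gene in all libraries. *Fosl1*, *Atf3* and *Klf2* were listed at 0 throughout. Among the 8 tested, the highest mean EPRs were those of *Crem*, a cAMP-responsive regulator, at 0.0188, *Btg2*, an antiproliferative factor, at 0.00670, and *Egr2*, the EGR relative, at 0.00617. *Egr2* was thus nearer to *Egr1* than to *Egr3* in the mean, but its libraries ran from 0.00153 to 0.0149 and span both.

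A further list held activity-induced effectors, whatever the timing of their induction. Of 20, 13 were tested and 2 passed, both higher with RPL10A-STAMP. Of all tested genes, 14.3% passed, 8.51% with a higher EPR in RPL10A-STAMP. At an unadjusted p under 0.05 there were 3 of 13 by limma and 3 by the methods' test, against 30.9% and 24.8% of all tested genes. *Homer1*, a postsynaptic scaffold, had an EPR of 0.0495, 0.0591 and 0.0530 in the RPL10A-STAMP libraries, against 0.0110, 0.0218 and 0.0131 with RPL22-STAMP, a log2 fold change of 1.09 (SE 0.16, limma adjusted p = 0.00688). With the GC trend removed, its fold change was 0.63 and the call was lost (limma adjusted p = 0.0576). *Bdnf* and *Nptx2*, not called in the main fit, passed with that trend removed, at -0.58 and 0.76 (limma adjusted p = 0.00870 and 0.0161). *Nrn1*, a neuritogenic membrane protein, had a log2 fold change of 0.75 (SE 0.16, limma adjusted p = 0.0238) and kept its call in 9 of 18 alternatives. It lost the call when any library except RPL22-STAMP replicate 1 was left out (limma adjusted p from 0.0618 to 0.0854). *Rasgrp1*, *Nptx1* and *Vgf* were edited most among those that did not pass, at mean EPRs of 0.0148, 0.0114 and 0.0110. Their log2 fold changes were 0.09, -0.24 and -0.08.

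The kinases and activators that switch on immediate early genes were edited more, with a median mean EPR of 0.0215, and 16 of 18 were tested. The limma test called 4 of the 16, against 14.3% of all, and 8 were at an unadjusted p under 0.05 by limma (30.9% of all) and 6 by the methods' test (24.8% of all). *Mapk3*, the kinase ERK1, was lower with RPL10A-STAMP, at 0.0108, 0.0127 and 0.0125 against 0.0294, 0.0373 and 0.0347 (log2 fold change -1.24, SE 0.12, limma adjusted p = 0.00444). *Rps6ka3*, the kinase RSK2, was higher (1.07, SE 0.13, limma adjusted p = 0.00490), as were the transcription factors *Mef2a* (0.73, limma adjusted p = 0.0176) and *Mef2c* (0.51, limma adjusted p = 0.0400). *Mef2c* kept its call in 5 of 18 alternatives, *Mef2a* in 11, *Rps6ka3* in 16 and *Mapk3* in 17. With the GC trend removed, *Mef2c* was at 0.16 (limma adjusted p = 0.472) and *Mef2a* at 0.43 (limma adjusted p = 0.0999), so both calls were lost, while *Rps6ka3* at 0.71 and *Mapk3* at -0.92 still passed. *Mef2c* lost its call when any 1 library was left out (limma adjusted p from 0.0598 to 0.113). *Mef2a* lost it without RPL10A-STAMP replicate 1 or 3 or RPL22-STAMP replicate 2 or 3 (limma adjusted p from 0.0501 to 0.0718). *Elk1*, which acts at serum response elements such as that of *Fos*, had a mean EPR of 0.257 ± 0.0261 with RPL10A-STAMP and 0.168 ± 0.0555 with RPL22-STAMP and did not pass (limma adjusted p = 0.416). The kinases *Camk4* and *Map2k1* did not pass either, with log2 fold changes of 0.49 and -0.54.

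Feedback and mRNA decay regulators include phosphatases of the *Dusp1* family and proteins that bind AU-rich elements. Of 18, 9 were tested and none passed the limma test (14.3% of all tested genes did), with 3 at an unadjusted p under 0.05 (30.9% of all tested genes). The methods' per-gene test gave 2 before adjustment (24.8% of all) and 0 after it. *Zfp36*, the decay factor tristetraprolin, and *Dusp10* were listed at 0 in all libraries. The neuronal AU-rich element binding proteins *Elavl3*, *Elavl4* and *Elavl2* had mean EPRs of 0.0183, 0.0137 and 0.0128 and log2 fold changes of -0.42, 0.39 and -0.09.

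**Figure D4:**
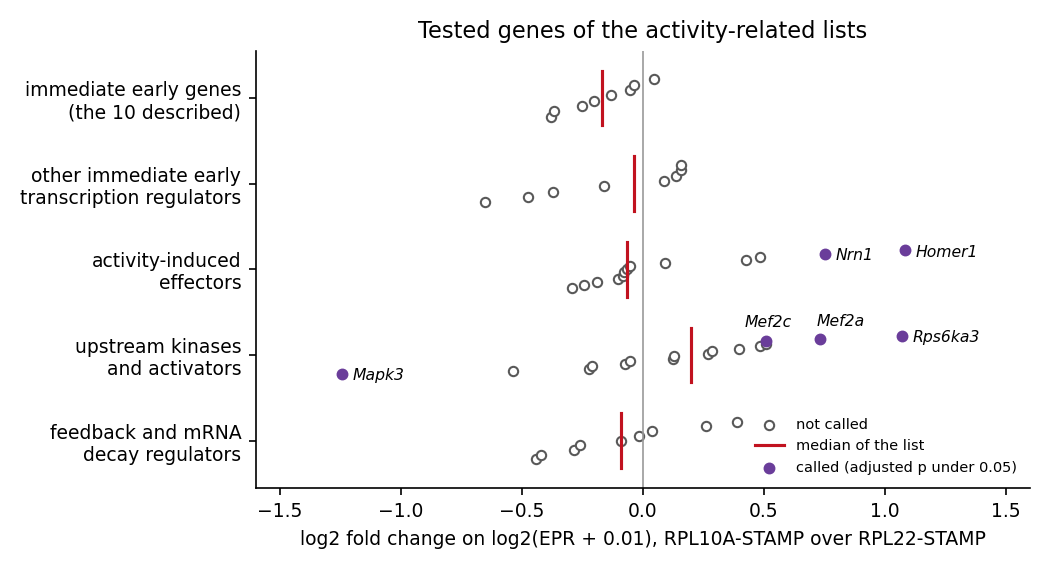
Difference between the variants as log2 fold change, positive where RPL10A-STAMP was higher (x axis, limma on log2(EPR + 0.01)) for each tested gene of the 5 lists; filled points passed an adjusted p of 0.05 and the red bar is the list's median. The 6 called genes belong to the effectors and the upstream list, and the 8 immediate early genes lie between -0.38 and 0.04.

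By scaled EPR over the 6 libraries, level included, the genes nearest to *Egr3* were *Set*, a histone chaperone, *Fth1*, the ferritin heavy chain, and *Slc25a11*, a mitochondrial carrier. Each had a mean EPR of 0.0124, against 0.0129 for *Egr3*, so nearness here reflects a like level and shows no shared regulation. The root mean square difference of *Set*, *Fth1* and *Slc25a11* from *Egr3* in log2 scaled EPR was 0.108, 0.111 and 0.120. For *Nr4a1* the nearest were *Polr3a*, *Vat1* and *Zcrb1*, at 0.326, 0.329 and 0.349.

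The transcripts shared a base composition that the choice of genes did not use. GC content of the transcript with the longest coding sequence ran from 51.3% for *Egr3* and 51.9% for *Fos* to 59.0% for *Arc* and 62.6% for *Junb*, and all 10 were above the median of 48.9% of the tested genes. APOBEC1 prefers a C flanked by A or U. Such C bases numbered from 50.3 per kilobase in *Junb* to 65.2 in *Npas4*, all below the median of 69.6. Across the 7921 tested genes with an annotated coding sequence, 2.92% had fewer of them than *Junb* and 3.94% fewer than *Egr1*. Across the same 7921 genes the mean EPR had a Spearman correlation with GC content of -0.35 with RPL10A-STAMP and 0.03 with RPL22-STAMP, and with the density of flanked C of 0.29 and 0.07. These are descriptions across genes of the same libraries, and genes are not independent replicates. *Egr3*, the highest of the 10 in mean EPR, had the lowest GC content, but *Fos*, with the next lowest, ranked 8 of 10.

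**Figure D5:**
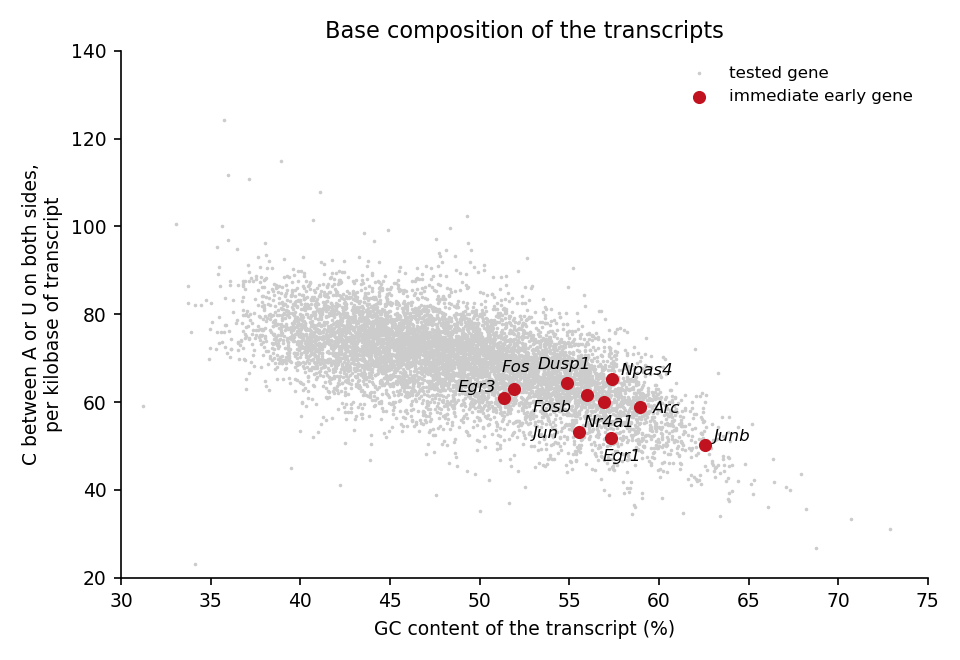
GC content (x axis, percent) against the number of C bases flanked by A or U on both sides per kilobase of transcript (y axis) for the tested genes (grey) and the 10 immediate early genes (red). All 10 lie to the right of the median GC content of 48.9% and below the median density of 69.6.

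Gene structure and the AU-rich elements were set against EPR in the same way. Of the 10 transcripts, 8 had at most 4 exons, as had 17.3% of the tested genes, while *Npas4* and *Nr4a1* had 8. The median mean EPR was 0.0137 for tested genes with at most 4 exons and 0.0133 for the others. For tested genes with at least 2 ATTTA in 30 bases it was 0.0158, against 0.0125 for the rest. Among the genes printed above, *Nr4a1* and *Dusp1* ranked just below *Egr3* in mean EPR, and *Fos* and *Jun* were near the end. The longest 3′ UTR of the 10, at 2645 bases, was that of *Egr3*, and the shortest, at 485 bases, that of *Junb*. But *Nr4a1*, with the next shortest at 543 bases, ranked 2 of 10 in mean EPR. *Fosb*, with the next longest at 2145 bases, ranked 7. Across 7767 tested genes with an annotated 3′ UTR, its length had a Spearman correlation of 0.23 with mean EPR over 6 libraries. No gene shared exon bases on the same strand with another listed gene, and no run of 50 bases of the 10 transcripts occurred in a GENCODE transcript of another gene.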

How the data were processed

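The authors used cutadapt for trimming, STAR for alignment to mm10 (up to 10 locations per read), SAILOR for C-to-U edits and featureCounts for reads per gene. They deposited the ratio of edits to reads (EPR) per gene and library, with no normalization between libraries, and depth cannot be recovered from it. Their annotation is not given in the sources used here. Of 31053 identifiers, 31011 were found in GENCODE mouse release 21, 42 were not, and all 10 genes described matched.

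Libraries were scaled so that their median EPR, taken over the 8046 genes with an edit in each of the 6, equalled the geometric mean of the 6 deposited medians. The values, as log2(EPR + 0.01), were fitted with limma 3.58.1 (R 4.3.3) with a mean-variance trend and Benjamini-Hochberg adjustment at 0.05. Fold changes on this scale understate those of low values. For single genes, an exact permutation test was also run (two-sided, 20 labelings). The methods call the libraries biological replicates, while the paper's results text writes of technical replicates where it correlates their EPR. Replicate numbers came from the labels and were not used as pairs. Genes are named in full for the 10, and otherwise as up to 4 called genes of lowest adjusted p and the 3 uncalled genes of highest EPR per list, 1 marker per cell type (that of the oligodendrocyte lineage is not reported here) and the 3 nearest genes of the 2 most edited members. *Fosl1*, *Atf3*, *Klf2*, *Zfp36* and *Dusp10*, listed at 0, and *Syn1*, *Gad2*, *Per1*, *Bdnf* and *Nptx2* were named after their values were seen. The genes and lists were chosen with earlier results of these data known. The alternatives were the pseudocount, scaling, filter, replicate block, GC and length trends, variance model, the methods' test and each library left out.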

Additional observations from a re-analysis of the deposited data

How the results depend on the processing

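None of the 8 tested immediate early genes was called under any of the 18 alternatives, including the fit with the replicate block. Their lowest adjusted p over these was 0.0736, for *Fos* without RPL22-STAMP replicate 2. The number of all genes called, 1149, was 754 for genes edited in at least 3 libraries, 569 with no filter, 603 with the replicate block, 663 with the GC trend removed, 227 with the GC trend removed and the replicate block, 0 by the methods' per-gene test (1996 at an unadjusted p under 0.05) and 369 to 873 with each library left out in turn.

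The median log2 fold change of the 8 genes, -0.17, was -0.033 with a pseudocount of 0.1, -0.31 with none, 0.015 without scaling, 0.074 with the GC trend removed (with or without the replicate block), -0.042 by the methods' test and -0.25 to -0.12 with 1 library left out. Leaving out scaling moved the median of all genes from -0.01 to 0.18. The fold changes that changed sign were as follows. Without scaling, *Arc* was at 0.067, *Egr1* at 0.092, *Egr3* at 0.019, *Dusp1* at 0.011, *Egr2* at 0.0085, *Vgf* at 0.12, *Elavl2* at 0.13 and *Aqp4* at 0.20. With the GC trend removed, with or without the block, *Arc* was at 0.30, *Fosb* at 0.032, *Egr1* at 0.28, *Dusp1* at 0.12, *Rasgrp1* at -0.0036, *Nptx1* at 0.0065, *Vgf* at 0.34 and *Elavl4* at -0.029. By the methods' test, *Arc* was at 0.26, *Egr1* at 0.28, *Egr3* at 0.038, *Vgf* at 0.24, *Elavl2* at 0.30 and *Aqp4* at 0.12, and with the length trend removed *Elavl2* was at 0.059. The cause of these changes was not tested.

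With each library left out in turn, *Arc* ran from -0.16 to 0.061, *Npas4* from -0.11 to 0.22, *Dusp1* from -0.33 to 0.21 (the latter without RPL22-STAMP replicate 3), *Egr2* from -0.43 to 0.29, *Vgf* from -0.32 to 0.089, *Elavl2* from -0.25 to 0.013 and *Aqp4* from -0.42 to 0.091. The EPR difference of *Jun* ran from -0.00192 to 0.00333 and that of *Junb* from -0.00176 to 0.00337. Scaled to the median gene, an alternative chosen after seeing the data, both kept their sign. Among the called genes of the other lists, *Homer1* and *Rps6ka3* lost their call with the GC trend removed together with the block (limma adjusted p = 0.105 and 0.0656), *Nrn1* with the block alone (0.0631), and *Mef2c* in each fit with 1 library left out. *Mef2c* lost it under the block too (0.0849), while *Homer1*, *Rps6ka3*, *Mef2a* and *Mapk3* kept their calls under the block alone. For the neuron markers *Syn1* and *Gad2*, the fold changes under each alternative are not listed here. The deviations of same-numbered libraries from the group means correlated over genes at r = 0.044, 0.046 and -0.0055, against -0.049 to 0.0041 for differently numbered libraries. Replicates 1 and 2 correlated best with their own number and replicate 3 did not. Whether same-numbered libraries shared a culture or batch was not tested. *Camk4* and *Elavl4* were called only without scaling.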
